A study of Homo sapiens with 9 samples.

Results

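ATP-dependent chromatin remodelers were followed at the transcript level in VCaP cells in which the long non-coding RNA *IGF1R-AS1* was targeted by siRNA. The 43 genes described here are the symbols that begin with SMARC, *CHD1* to *CHD9*, and named subunits of the SWI/SNF, ISWI, INO80 and SWR1-type complexes (*ARID1A*, *ARID1B*, *ARID2*, *PBRM1*, *BRD7*, *BRD9*, *ACTL6A*, *DPF1* to *DPF3*, *PHF10*, *SS18*, *BICRA*, *BICRAL*, *BAZ1A*, *BAZ1B*, *BAZ2A*, *BPTF*, *INO80*, *EP400* and *SRCAP*). They were taken by gene name from 19918 gene symbols in the count files. VCaP is an established human prostate cancer cell line of epithelial type. There were 3 groups of 3 libraries each, namely cells given a control siRNA, cells given the *IGF1R-AS1* siRNA si025 and cells given the *IGF1R-AS1* siRNA si033. Transfection was done in reverse with 100 pmol siRNA, cells were taken after 72 h, and each library was prepared from 1.3 µg of total RNA with a stranded total RNA kit. The study examined *IGF1R-AS1* together with the ATPases SMARCA4 and SMARCA1, and the question addressed here is whether the transcripts of these ATPases and of their partner subunits changed when the RNA was targeted. By western blot in VCaP cells, the paper reports no change in SMARCA4 and SMARCA1 protein abundance after *IGF1R-AS1* knockdown. Only RNA was measured here, so the values below are not protein levels. The model is 1 cell line at 1 time point, and *IGF1R-AS1* itself was not analysed here.

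Chromatin remodelers use the energy of ATP hydrolysis to slide, eject or exchange nucleosomes. SWI/SNF complexes are built around SMARCA4 (BRG1) or SMARCA2 (BRM) and exist as canonical BAF, PBAF and non-canonical BAF, which share core subunits and differ in the subunits that carry DNA-binding, bromodomain or PHD finger modules. ISWI complexes contain SMARCA5 (SNF2H) or SMARCA1 (SNF2L), and some of them space nucleosomes evenly. CHD proteins carry chromodomains, and CHD3, CHD4 and CHD5 are the ATPases of the NuRD deacetylase complex. INO80, SRCAP and EP400 lead complexes that handle the histone variant H2A.Z. In prostate epithelium, SWI/SNF activity is known for keeping enhancers bound by the androgen receptor, FOXA1 and ERG accessible.

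The study listed 2 siRNA designs against *IGF1R-AS1* and 1 negative control, printed here because every comparison rests on them. One strand of each is given 5′ to 3′, with capitals marking the overhang that was left out of the genome search.
siRNA-1#: agaaagcacugaagaccuaUU
siRNA-2#: ccguauugcucaguggaaaUU
negative control: uagcgacuaaacacaucaa
The first 19 bases of siRNA-1# had 1 exact match in hg38, at chr15:98843733-98843751 on the minus strand. Those of siRNA-2# also had 1, at chr15:98843694-98843712 on the minus strand. Both sites lie within the span of *IGF1R* on the plus strand (chr15:98648539-98964530) and overlapped no *IGF1R* exon of the count files' annotation, and the negative control had 0 exact matches. The sources used here do not state which design is si025 and which is si033.

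Library totals ran from 11649811 to 28492259 counts, and the 43 genes together received 0.565% to 0.654% of them. All 10 luminal prostate markers were at or above 1 CPM (counts scaled to library size) in every group, with a summed level of 8293 to 8523 CPM in control, 10048 to 10405 CPM with si025 and 7010 to 7362 CPM with si033. The fibroblast marker list summed to 16.7 to 18.9 CPM in control, 36.7 to 44.0 CPM with si025 and 8.90 to 11.5 CPM with si033. Most of it was *LUM* (14.4 to 16.4, 33.4 to 39.8 and 7.25 to 9.21 CPM), and *COL1A2* was at 0 in every control and si025 library. The 3 basal markers summed to 3.09 to 4.98 CPM in control, 2.73 to 3.67 CPM with si025 and 1.24 to 1.76 CPM with si033, nearly all of it *KRT14*, with *KRT5* at 0 in all libraries. The 3 endothelial markers summed to 0.786 to 1.09, 1.32 to 2.25 and 0.619 to 1.15 CPM in the same order, mostly *VWF*, with *CDH5* at 0 throughout. The 4 leukocyte markers summed to 2.01 to 2.90, 1.49 to 3.04 and 1.55 to 2.48 CPM, mostly *CD14* and *CD68*, with *CD3E* at 0 throughout. The part of these markers in the results below was not tested. Tested remodeler genes are long, with a median exon length of 6887 bases against 4220 bases over all tested genes. The 11 of them with at least 9000 bases lay a median of 0.12 above their group mean on the log2 scale in si025 replicate 1 and 0.10 below it in si025 replicate 2, where long genes of the whole table lay 0.057 above and 0.074 below. The study calls its knockdown sequencing biologically replicated, but the labels do not say whether libraries of a group came from separate cultures, so p-values measure the spread between these libraries, which may be technical in part. Also, in bulk RNA fewer cells of a type and less RNA per cell cannot be told apart.

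Transcript levels in control cells differed widely between members. On the scale of TPM, which corrects counts for gene length and depth, the core subunit *SMARCE1* was highest at 341 ± 2.93 (SD, n = 3). The scaffold subunit *SMARCC1* followed at 172 ± 3.35, ahead of the NuRD ATPase *CHD4* at 158 ± 2.87 and the actin-like core subunit *ACTL6A* at 145 ± 2.25. The libraries of the PBAF subunit *PHF10* (143 ± 1.17) overlapped those of *ACTL6A* and those of *CHD3* (142 ± 0.598), while the *CHD3* libraries all lay below those of *ACTL6A*. Among the ATPases of the SWI/SNF complexes, *SMARCA4* stood at 82.1 ± 4.1 TPM and *SMARCA2* at 46.7 ± 0.565 TPM. Of the ISWI ATPases, *SMARCA5* stood at 73.5 ± 0.722 TPM and *SMARCA1* at 15.4 ± 0.729 TPM, so the *SMARCA1* libraries all lay below those of its paralogue. The lowest tested members were *SMARCD3* at 3.81 ± 0.253, *CHD5* at 3.15 ± 0.167 and *DPF1* at 1.39 ± 0.449 TPM. These genes are known as subunits used mainly in muscle or nerve.

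**Figure D1:**
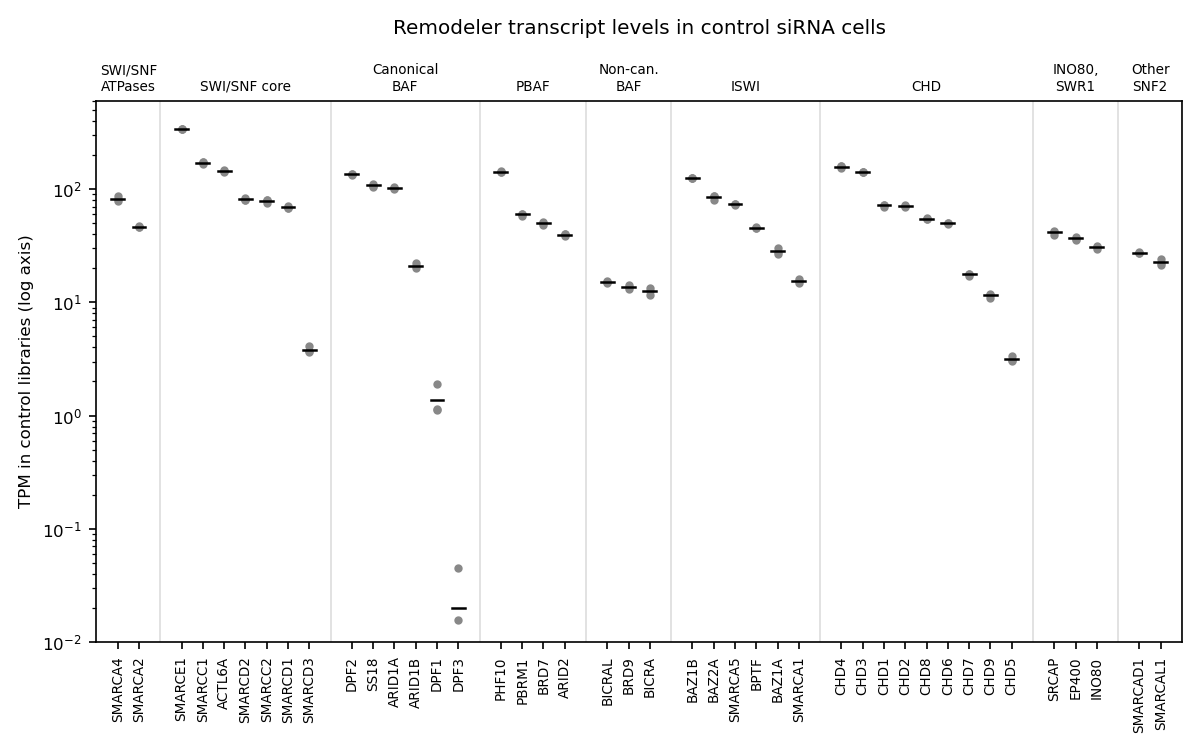
TPM (log axis) of 42 remodeler genes in the 3 control libraries, grouped by complex and sorted within each; grey points are libraries and black lines group means. *SMARCE1* is highest at 341 TPM and *DPF3* lowest, with 1 library at 0 that a log axis cannot show; *SMARCB1*, at 0 in all, is not drawn.

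The remaining 2 members could not be tested. *DPF3*, a nerve and muscle paralogue of *DPF2*, had 0 to 4 counts per library. *SMARCB1*, a core SWI/SNF subunit (hg38 chr22:23786931-23834518, plus strand), was listed at 0 counts in all 9 libraries, for which counting error alone allows up to 0.105 to 0.258 CPM, depending on the depth of the library. Its surroundings were listed in the same way. Of the 12 gene entries from *C22orf15* to *DDT* (hg38 chr22:23762522-23979828), 11 had at most 1 count in any library, and these included *MIF*, a gene that most cells express. Outside this stretch *ZNF70* had 52 to 155 counts and *CABIN1* 982 to 2350 counts. The zero is therefore given as a value of the files and not as a level of *SMARCB1* RNA.

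Against control, si025 changed the transcripts of 26 of the 41 tested members, with 9 higher and 17 lower. A gene is called here at an adjusted p under 0.05 in edgeR's quasi-likelihood test with Benjamini-Hochberg adjustment over 12810 genes. Because 61.7% of all tested genes were called in that comparison (32.9% higher and 28.8% lower), the members' 63.4% lies near the background, with 22% of the members higher and 41.5% lower. With si033, 26 of 41 members were called, 14 higher and 12 lower (63.4%, 34.1% and 29.3%), beside 54.8% of all genes (26.9% higher and 27.8% lower). Directly between the siRNAs, 25 members differed (61%), and 19 of these were lower with si025 and 6 were higher (46.3% and 14.6%), beside 60.9% of all genes (29.7% lower and 31.2% higher). Both siRNA groups were set against the same 3 control libraries, so the first 2 comparisons are not independent of each other.

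These changes were mostly modest in size. Members moved by a median absolute log2 fold change of 0.18 with si025 and 0.17 with si033, against 0.26 and 0.22 over all tested genes, and it was 0.18 against 0.24 between the siRNAs. The members' median signed log2 fold change was -0.077 with si025 and 0.016 with si033, against 0.017 and 0.0033 over all genes. With the added limit of a 1.5-fold change, 2 members were called with si025 (*SMARCD3* and *ACTL6A*; 19.3% of all genes) and 3 with si033 (*SMARCD3*, *SMARCA1* and *SMARCA2*; 14.7% of all genes). Between the siRNAs there were 2 (*ACTL6A* and *SMARCA1*; 18.9% of all genes). In the plot of fold changes by complex, both SWI/SNF ATPases were lower with si025, and in no other family were all tested members called in 1 direction.

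**Figure D2:**
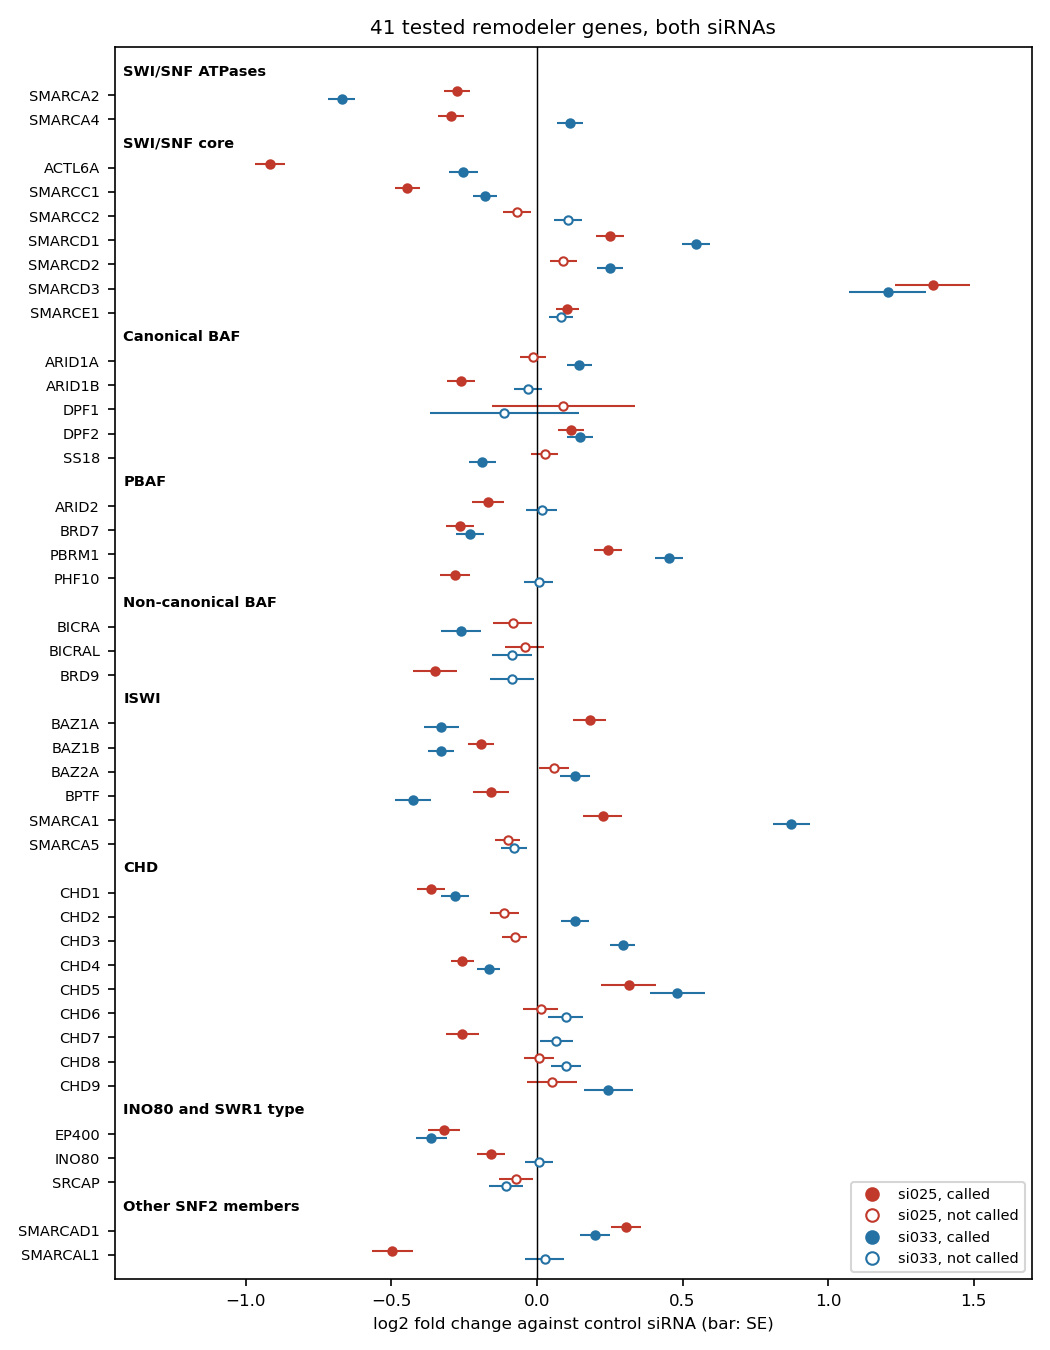
log2 fold change against control siRNA (x axis, bars are SE) of the 41 tested members, grouped by complex, for si025 (red) and si033 (blue); filled points were called at an adjusted p under 0.05. *SMARCD3* lies farthest right with both siRNAs (1.36 and 1.21), *ACTL6A* farthest left with si025 (-0.92) and *SMARCA2* farthest left with si033 (-0.67).

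Both catalytic SWI/SNF subunits differed between the siRNAs, in opposite directions. *SMARCA4* stood at 192, 183 and 178 CPM in the control libraries, at 152, 151 and 147 with si025 and at 206, 195 and 196 with si033. The si025 libraries of this ATPase (hg38 chr19:10960922-11062282, plus strand) all lay below the control libraries and the si033 libraries all above them. *SMARCA4* fell with si025 (log2 change -0.30 with SE 0.045, adjusted p = 5e-06) and rose slightly with si033 (log2 change 0.11 with SE 0.044, adjusted p = 0.0357). The rise was lost when control replicate 2 or 3 or si033 replicate 1 or 3 was left out (adjusted p 0.0539 to 0.146, log2 fold change 0.092 to 0.13), and with no filter on low counts (0.11, adjusted p = 0.061). Set against si033, the si025 level of *SMARCA4* was lower by 0.41 ± 0.044 on the log2 scale (SE, adjusted p = 4.06e-08).

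*SMARCA2* stood at 118, 116 and 118 CPM in the control libraries, at 98, 94.8 and 98.6 with si025 and at 72.5, 74.8 and 73.9 with si033. For this second ATPase (hg38 chr9:2015219-2193624, plus strand) the groups formed separate tiers, control above si025 above si033. It fell with si025 (log2 change -0.27 with SE 0.045, adjusted p = 1.28e-05) and fell further with si033 (log2 change -0.67 with SE 0.046, adjusted p = 2.25e-11), and the siRNAs differed by 0.40 ± 0.046 (SE, adjusted p = 1.05e-07). The summed level of both ATPases was 129 ± 4.58 TPM in control (SD, n = 3), 111 ± 3.89 TPM with si025 and 120.0 ± 2.4 TPM with si033. Unlike the CPM and fold changes, TPM carries no TMM scaling, so the decreases on the 2 scales differ in size. *SMARCA2* alone went from 46.7 TPM in control to 40.6 TPM with si025, and from 117 to 97.1 in mean CPM.

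Of the 7 tested core subunits, 3 rose (42.9%) and 2 fell (28.6%) with each siRNA. Over all tested genes 32.9% rose and 28.8% fell with si025, and 26.9% rose and 27.8% fell with si033. The actin-like protein ACTL6A (BAF53A), known as the form of proliferating and progenitor cells, gave the largest decrease among all members. *ACTL6A* stood at 102, 102 and 106 CPM in the control libraries, at 53.9, 52.9 and 57.3 with si025 and at 82.7, 89.5 and 88 with si033. The si025 libraries lay below those of both other groups, at 0.529-fold of the control level (hg38 chr3:179562880-179588405, plus strand). *ACTL6A* fell with si025 (log2 change -0.92 with SE 0.051, adjusted p = 4.88e-13) and less with si033 (log2 change -0.25 with SE 0.050, adjusted p = 0.000163), with a difference of -0.67 ± 0.052 (SE, adjusted p = 1.4e-10). *SMARCC1* (BAF155), a scaffold of every SWI/SNF form, moved in the same order of groups. *SMARCC1* stood at 364, 382 and 382 CPM in the control libraries, at 285, 266 and 279 with si025 and at 328, 332 and 337 with si033. It fell with both siRNAs, by 0.44 ± 0.042 (SE) on the log2 scale with si025 (adjusted p = 3.13e-09) and by 0.18 ± 0.041 with si033 (adjusted p = 0.000867; hg38 chr3:47585888-47781915, minus strand). Its paralogue *SMARCC2* (BAF170) passed the threshold with neither siRNA (-0.068 and 0.11, adjusted p = 0.225 and 0.0674), though leaving out si033 replicate 2 or si025 replicate 2 gave a call with si033 (0.15, adjusted p = 0.0162, and 0.11, adjusted p = 0.0486). It was also called with si033 with upper quartile scaling, a fit of only the 2 groups compared or gene length offsets (adjusted p 0.0244 to 0.0493, log2 fold change 0.10 to 0.13), and as lower with si025 with gene length offsets (-0.11, adjusted p = 0.0272).

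All of the core subunits called higher with si033 were SMARCD (BAF60) subunits, of which each complex holds 1. *SMARCD3* (BAF60C), the paralogue known from heart and muscle, gave the largest increase among the members with both siRNAs. *SMARCD3* stood at 3.49, 3.91 and 3.52 CPM in the control libraries, at 8.57, 9.73 and 9.46 with si025 and at 8.9, 7.2 and 8.8 with si033. No si025 or si033 library overlapped the control range, while the siRNA groups overlapped each other (hg38 chr7:151238973-151277436, minus strand). *SMARCD3* rose 2.56-fold with si025 (log2 change 1.36 with SE 0.13, adjusted p = 4.13e-09) and 2.31-fold with si033 (log2 change 1.21 with SE 0.13, adjusted p = 6.11e-08), and the difference between siRNAs was not called (0.15 ± 0.11, adjusted p = 0.245). It remained at most 9.73 CPM. *SMARCD1* stood at 86.2, 90.5 and 87.6 CPM in the control libraries, at 110.5, 104 and 101 with si025 and at 132, 126 and 128 with si033. *SMARCD1* (BAF60A; hg38 chr12:50085200-50100711, plus strand) thus rose in separate tiers, with si025 (log2 change 0.25 with SE 0.048, adjusted p = 0.0001) and more with si033 (log2 change 0.55 with SE 0.048, adjusted p = 1.78e-09). *SMARCD2* rose with si033 (0.25, adjusted p = 6.3e-05) and stood at 0.091 with si025 (adjusted p = 0.0874), which passed with upper quartile scaling (0.11, adjusted p = 0.0354). The HMG-box subunit *SMARCE1* (BAF57) was called with si025 only narrowly (0.10, adjusted p = 0.0281), and the call was lost without si025 replicate 3 or without any 1 control library (adjusted p 0.0626 to 0.112, log2 fold change 0.091 to 0.10). It was lost too with RLE scaling, no filter on low counts or a fit of only the 2 groups compared (adjusted p 0.0559 to 0.0597, log2 fold change 0.089 to 0.10). With si033 it was 0.083 (adjusted p = 0.0849), and it passed without si033 replicate 1 (0.11, adjusted p = 0.0324) and with upper quartile scaling (0.11, adjusted p = 0.0179).

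Canonical BAF subunits changed little. *ARID1A*, the more abundant of the alternative ARID-domain subunits, was -0.014 with si025 (adjusted p = 0.802) and rose by 0.14 with si033 (adjusted p = 0.00687). Its alternative *ARID1B* fell with si025 (log2 change -0.26 with SE 0.049, adjusted p = 7.2e-05) and stood at -0.032 with si033. *SS18*, known as the fusion partner in synovial sarcoma, stood at 0.027 with si025 and fell with si033 (log2 change -0.19 with SE 0.046, adjusted p = 0.0015). The PHD finger subunit *DPF2* rose with si033 (0.15, adjusted p = 0.00815) and with si025 (0.12, adjusted p = 0.0261). The si025 call of *DPF2* was lost without si025 replicate 1, si025 replicate 2 or any 1 control library (adjusted p 0.0508 to 0.103, log2 fold change 0.10 to 0.12), and with RLE scaling, DESeq2 or a fit of only the 2 groups compared (adjusted p 0.0503 to 0.0584, log2 fold change 0.10). *DPF1* was called in no comparison, at 1.09 to 1.83 CPM in all libraries.

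PBAF, the form with polybromo, had 1 subunit higher (25%) and 3 lower (75%) with si025, beside 32.9% and 28.8% of all genes. *PBRM1* itself, a protein with several bromodomains (hg38 chr3:52545352-52685933, minus strand), was the one that rose. *PBRM1* stood at 205, 198 and 209 CPM in the control libraries, at 250.4, 226 and 249.9 with si025 and at 265, 285 and 288 with si033. Every siRNA library lay above every control library. The increase was 0.24 ± 0.048 with si025 (SE, adjusted p = 0.000139) and 0.45 ± 0.048 with si033 (adjusted p = 3.92e-08). *BRD7*, a bromodomain subunit, fell with both siRNAs (-0.26 and -0.23, adjusted p = 5.28e-05 and 0.000347). *PHF10* (BAF45A) fell with si025 (log2 change -0.28 with SE 0.051, adjusted p = 5e-05) and was 0.0056 with si033 (adjusted p = 0.933). The DNA-binding subunit *ARID2* fell with si025 (-0.17, adjusted p = 0.00971), and without si025 replicate 2 this was -0.11, adjusted p = 0.0689.

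The 3 subunits of non-canonical BAF were among the lower-expressed members in control cells, at 15.2 ± 0.285 TPM for *BICRAL*, 13.7 ± 0.678 TPM for *BRD9* and 12.6 ± 0.833 TPM for *BICRA*. *BRD9* stood at 27.9, 29.6 and 27.2 CPM in the control libraries, at 24.2, 22.5 and 20.1 with si025 and at 29, 24.1 and 26.4 with si033. *BRD9*, a bromodomain protein that defines this form (hg38 chr5:863735-892824, minus strand), fell with si025 (log2 change -0.35 with SE 0.077, adjusted p = 0.000401), where no si025 library reached the control range. With si033 its libraries overlapped the control libraries (-0.087, adjusted p = 0.344). The difference between siRNAs (-0.26, adjusted p = 0.00519) was lost without si025 replicate 3 (-0.19, adjusted p = 0.0645). *BICRA* fell with si033 (log2 change -0.26 with SE 0.069, adjusted p = 0.00276) and *BICRAL* was called in no comparison. The difference of *BICRA* between siRNAs (0.18, adjusted p = 0.0295) was lost without si025 replicate 1, si025 replicate 2 or si033 replicate 2 (adjusted p 0.0579 to 0.157, log2 fold change 0.11 to 0.17), and with DESeq2 or gene length offsets (adjusted p 0.0798 to 0.0896, log2 fold change 0.13 to 0.17).

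Among the ISWI genes, the less abundant ATPase rose with both siRNAs, and the more abundant one lay near the threshold with si025. *SMARCA1* stood at 23.2, 22.4 and 25 CPM in the control libraries, at 27.5, 27.6 and 28.1 with si025 and at 40.5, 43.8 and 45.2 with si033. The groups of *SMARCA1* (hg38 chrX:129446501-129523564, minus strand) stood in separate tiers with si033 highest. *SMARCA1* rose 1.83-fold with si033 (log2 change 0.87 with SE 0.064, adjusted p = 6.57e-11) and 1.17-fold with si025 (log2 change 0.23 with SE 0.067, adjusted p = 0.00527), and the siRNAs differed by -0.65 ± 0.061 (SE, adjusted p = 3.95e-09). *SMARCA5* stood at -0.10 ± 0.044 with si025 (SE, adjusted p = 0.052) and -0.080 ± 0.044 with si033 (adjusted p = 0.133). The si025 value passed the threshold when si025 replicate 1, si033 replicate 1 or si033 replicate 2 was left out (-0.13, adjusted p = 0.0251, then -0.10, adjusted p = 0.0429 and -0.10, adjusted p = 0.0481). It passed as well with RLE scaling, DESeq2, a fit of only the 2 groups compared, a replicate block or gene length offsets (adjusted p 0.000644 to 0.0491, log2 fold change -0.15 to -0.10).

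The accessory ISWI subunits moved in both directions. *BAZ1A* stood at 67, 60 and 63.6 CPM in the control libraries, at 72.2, 67.6 and 75.9 with si025 and at 52.2, 47.6 and 51.5 with si033. *BAZ1A* (ACF1), the partner of SMARCA5 in the ACF and CHRAC complexes (hg38 chr14:34752731-34875647, minus strand), therefore lay above control with si025 and below it with si033. It rose with si025 (log2 change 0.18 with SE 0.057, adjusted p = 0.00876) and fell with si033 (log2 change -0.33 with SE 0.060, adjusted p = 6.59e-05), with a difference of 0.51 ± 0.058 (SE, adjusted p = 8.71e-08). The rise with si025 was lost without si025 replicate 3 or control replicate 2 (adjusted p 0.0658 to 0.0744, log2 fold change 0.14). *BAZ1B* (WSTF) fell with both siRNAs (-0.19 and -0.33, adjusted p = 0.000625 and 1.32e-06), and its difference between siRNAs (0.14) was lost without si025 replicate 1 or si033 replicate 2 (adjusted p 0.0511 to 0.0728, log2 fold change 0.095 to 0.11). *BPTF*, the large subunit of NURF, fell with si033 (log2 change -0.42 with SE 0.061, adjusted p = 3.49e-06). Its decrease with si025 (-0.16, adjusted p = 0.0278) was -0.094, adjusted p = 0.164 without si025 replicate 2. It was also lost without control replicate 2 or 3, or si025 replicate 3 (adjusted p 0.055 to 0.164, log2 fold change -0.17 to -0.094 over the 4 libraries), and with upper quartile scaling (-0.14, adjusted p = 0.0574). *BAZ2A* (TIP5), a subunit of the nucleolar complex NoRC, was 0.13 with si033 (adjusted p = 0.0379), a call lost without control replicate 1 or 3, or without si033 replicate 1 or 3 (adjusted p 0.0555 to 0.144, log2 fold change 0.11 to 0.14), and with DESeq2 (0.12, adjusted p = 0.0522). With si025 it was 0.058 (adjusted p = 0.339), and without si025 replicate 2 0.12, adjusted p = 0.0212.

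**Figure D3:**
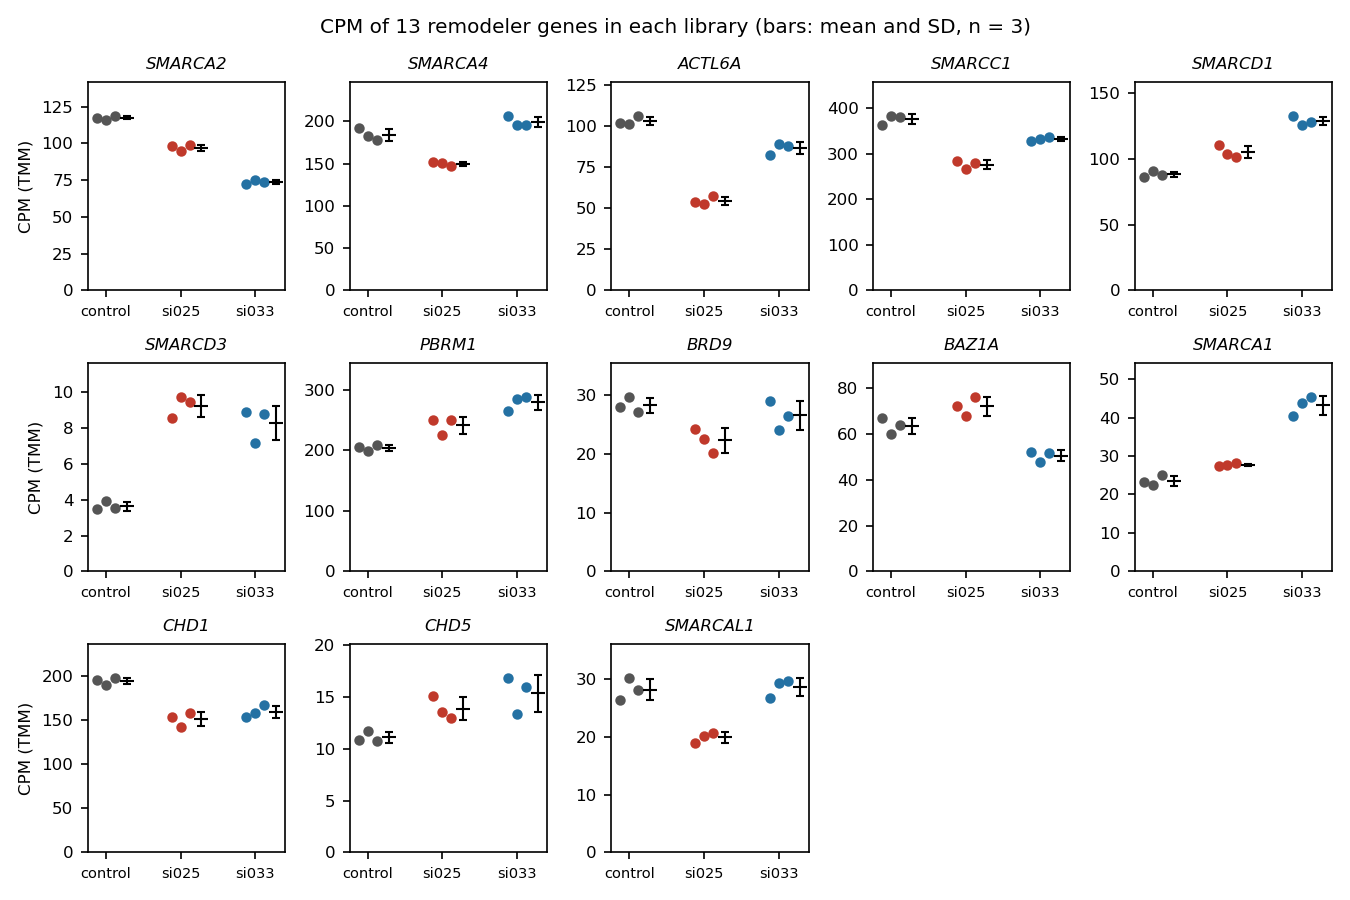
Normalised level (CPM with TMM scaling, axes from 0) of the 13 members given in full, in each of the 9 libraries; points are libraries, and bars beside them give the mean and SD (n = 3). *SMARCD3* rises from at most 3.91 CPM in control to at least 7.20 CPM with either siRNA, *SMARCA2* descends and *SMARCA1* ascends from control through si025 to si033, and *SMARCA4* and *BAZ1A* lie on opposite sides of control with the 2 siRNAs.

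In the CHD family of 9 genes, 1 rose (11.1%) and 3 fell (33.3%) with si025. With si033, 4 rose (44.4%) and 2 fell (22.2%). Over all tested genes 32.9% rose and 28.8% fell with si025, and 26.9% rose and 27.8% fell with si033. *CHD1* stood at 196, 189.9 and 197 CPM in the control libraries, at 153, 143 and 157 with si025 and at 153, 158 and 166 with si033. *CHD1*, which binds methylated H3K4 at active genes and is often deleted in prostate tumours, fell with both siRNAs (log2 change -0.36 with SE 0.047, adjusted p = 6.26e-07 with si025; log2 change -0.28 with SE 0.048, adjusted p = 2.56e-05 with si033). Its siRNA libraries all lay below the control libraries and overlapped each other (hg38 chr5:98855204-98929014, minus strand). *CHD4*, the main NuRD ATPase, fell with si025 (log2 change -0.26 with SE 0.040, adjusted p = 6.53e-06) and with si033 (log2 change -0.17 with SE 0.040, adjusted p = 0.00111). *CHD3*, the other widely used NuRD ATPase, rose with si033 (log2 change 0.29 with SE 0.044, adjusted p = 5.25e-06) and was -0.077 with si025 (adjusted p = 0.135), which passed with a fit of only the 2 groups compared or gene length offsets (adjusted p 0.0059 to 0.0458, log2 fold change -0.13 to -0.093). *CHD5* stood at 10.8, 11.7 and 10.7 CPM in the control libraries, at 15.1, 13.6 and 13 with si025 and at 16.8, 13.4 and 15.9 with si033. *CHD5*, the NuRD ATPase known from neurons (hg38 chr1:6101787-6180134, minus strand), rose with si025 (log2 change 0.31 with SE 0.095, adjusted p = 0.00655) and with si033 (log2 change 0.48 with SE 0.095, adjusted p = 0.00016), and every siRNA library lay above the control libraries. *CHD7*, the gene of CHARGE syndrome, fell with si025 (log2 change -0.26 with SE 0.058, adjusted p = 0.000533) and was 0.066 with si033 (adjusted p = 0.339).

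The remaining CHD genes gave values near the threshold or below it. *CHD2* rose with si033 (0.13, adjusted p = 0.0278), and this call was lost without si033 replicate 1, si033 replicate 3 or control replicate 1 (adjusted p 0.054 to 0.0926, log2 fold change 0.11 to 0.14). With si025 *CHD2* was -0.11 (adjusted p = 0.052), and it passed without si025 replicate 1 (-0.17, adjusted p = 0.00638), si033 replicate 1 (-0.12, adjusted p = 0.0356) or si033 replicate 2 (-0.11, adjusted p = 0.0454). It passed as well with RLE scaling, DESeq2, no filter on low counts, a fit of only the 2 groups compared, a replicate block or gene length offsets (adjusted p 0.000992 to 0.0398, log2 fold change -0.17 to -0.11). *CHD9* rose with si033 (0.25, adjusted p = 0.0175), a call lost without si033 replicate 3 (0.16, adjusted p = 0.168) or control replicate 2 (0.22, adjusted p = 0.076), and with DESeq2 (0.23, adjusted p = 0.129). Its si025 libraries spread from 50.1 to 70.6 CPM, and without si025 replicate 2 the si025 change was called (0.17, adjusted p = 0.0379). The difference of *CHD9* between siRNAs (-0.19, adjusted p = 0.0484) was -0.30 without si025 replicate 1, and it was -0.072, adjusted p = 0.393 without si025 replicate 2. It was lost as well without control replicate 1 or 2, si025 replicate 3 or si033 replicate 3 (adjusted p 0.0519 to 0.393, log2 fold change -0.21 to -0.072 over the 5 libraries), and with DESeq2 or a fit of only the 2 groups compared (adjusted p 0.0695 to 0.228, log2 fold change -0.20 to -0.18). *CHD6* and *CHD8* were called in none of the 3 comparisons (log2 fold changes 0.014 and 0.0065 with si025, and 0.098 and 0.10 with si033). Between the siRNAs they passed without si025 replicate 1 (*CHD6* -0.15, adjusted p = 0.0353; *CHD8* -0.17, adjusted p = 0.00513) and with gene length offsets (*CHD6* -0.13, adjusted p = 0.0127; *CHD8* -0.15, adjusted p = 0.00443). *CHD8* also passed with si033 with upper quartile scaling or a fit of only the 2 groups compared (adjusted p 0.0376 to 0.0424, log2 fold change 0.10 to 0.13).

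Of the H2A.Z-related ATPases, *EP400* (p400) fell with si025 (log2 change -0.32 with SE 0.054, adjusted p = 1.88e-05) and si033 (log2 change -0.36 with SE 0.054, adjusted p = 5.1e-06). *INO80* fell with si025 (log2 change -0.16 with SE 0.047, adjusted p = 0.00603) and was 0.0072 with si033. *SRCAP* was -0.072 and -0.11 (adjusted p = 0.282 and 0.123), and the si025 value passed without si025 replicate 1 (-0.15, adjusted p = 0.0155). With gene length offsets *SRCAP* passed with si025 (-0.13, adjusted p = 0.016) and si033 (-0.12, adjusted p = 0.0397). *SMARCAL1* stood at 26.4, 30.2 and 28.1 CPM in the control libraries, at 18.9, 20.1 and 20.7 with si025 and at 26.8, 29.3 and 29.7 with si033. *SMARCAL1*, an annealing helicase that protects stalled replication forks (hg38 chr2:216412414-216483053, plus strand), fell with si025 (log2 change -0.50 with SE 0.070, adjusted p = 1.78e-06), while its si033 and control libraries overlapped (0.027, adjusted p = 0.754). The difference between siRNAs was -0.52 ± 0.069 (SE, adjusted p = 7.41e-07). *SMARCAD1*, known for heterochromatin upkeep and DNA end resection, rose with si025 (log2 change 0.31 with SE 0.051, adjusted p = 1.78e-05) and si033 (log2 change 0.20 with SE 0.052, adjusted p = 0.00253). Its difference between siRNAs (0.11, adjusted p = 0.0662) passed without si033 replicate 3 (0.15, adjusted p = 0.0411) and with a replicate block (0.11, adjusted p = 0.0496).

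Pairs of paralogues were also compared as a ratio within each library, which does not depend on library scaling. Not all pairs share a position in a complex. *BRD7* belongs to PBAF and *BRD9* to non-canonical BAF, for example, so a ratio need not be an exchange of subunits. The share is the first gene's percent of the TPM of both, and the test is an exact two-sided permutation test of the log2 ratio, 3 libraries against 3, whose smallest possible p is 0.1 (0.157 after adjustment over 36 tests). No ratio can therefore pass 0.05, and groups are described by whether they overlapped. Libraries did not overlap in 8 of 12 pairs for si025 against control, 7 of 12 for si033 against control and 8 of 12 between the siRNAs (66.7%, 58.3% and 66.7%). Over all pairs of tested genes with counts in every library, the ratios did not overlap in 65.2%, 59.1% and 63.2%, so these counts lie near the background.

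For the SWI/SNF ATPases, *SMARCA2* made up 35.4, 36.2 and 37.2% of the pair in the control libraries, 36.6, 35.9 and 37.4% with si025 and 23.9, 25.5 and 25.2% with si033. The si025 and control libraries overlapped (difference in log2 ratio 0.023, exact p = 0.7), as both genes fell. With si033 the ratio was lower by 0.78 than in control and overlapped neither other group (exact p = 0.1). The ISWI balance moved toward *SMARCA1*, which made up 17.5, 16.5 and 18.1% of the pair with *SMARCA5* in control, 20.2, 21.8 and 20.9% with si025 and 27.8, 29.5 and 29.5% with si033. These groups were separate in each of the 3 comparisons (differences 0.34, 0.96 and -0.62, exact p = 0.1 each).

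Mean shares of the other pairs are given as percent ± SD (n = 3) in the order control, si025, si033. *SMARCC1* made up 68.6 ± 0.82, 62.7 ± 0.414 and 64.3 ± 1.41 of its pair with *SMARCC2*, and both siRNA groups lay below control. *SMARCD1* made up 46 ± 0.277, 48.7 ± 0.649 and 51 ± 0.957 against *SMARCD2*, in separate tiers. *ARID1A* made up 83 ± 0.384, 85.3 ± 0.117 and 84.7 ± 0.267 against *ARID1B*, with both siRNA groups above control. For the NuRD ATPases, *CHD3* made up 47.3 ± 0.552, 50.4 ± 0.212 and 55.2 ± 1.21 against *CHD4*, again in separate tiers. On the TPM scale *CHD3* thus passed from the smaller to the larger share. Without the correction for length, *CHD3* already lay above *CHD4* in control, at 420 ± 6.21 against 384 ± 4.49 CPM. *CHD1* made up 50.1 ± 0.953, 45.7 ± 1.35 and 42.9 ± 1.78 against *CHD2*, and these groups were separate too. *BAZ1A* made up 18.4 ± 0.962, 22.5 ± 1.36 and 18.3 ± 0.331 against *BAZ1B*, and *CHD6* made up 73.9 ± 0.605, 77.2 ± 0.632 and 74.2 ± 0.498 against *CHD7*. In both of these pairs the si025 libraries alone stood apart. The libraries of all groups overlapped for *BRD7* and *BRD9* (78.4 ± 1.37, 79.4 ± 1.63 and 76.8 ± 1.7 *BRD7*), *BICRA* and *BICRAL* (45.4 ± 1.95, 44.4 ± 3.28 and 42.1 ± 1.83 *BICRA*), and *CHD8* and *CHD9* (82.6 ± 0.749, 82.1 ± 1.27 and 81.2 ± 1.17 *CHD8*).

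**Figure D4:**
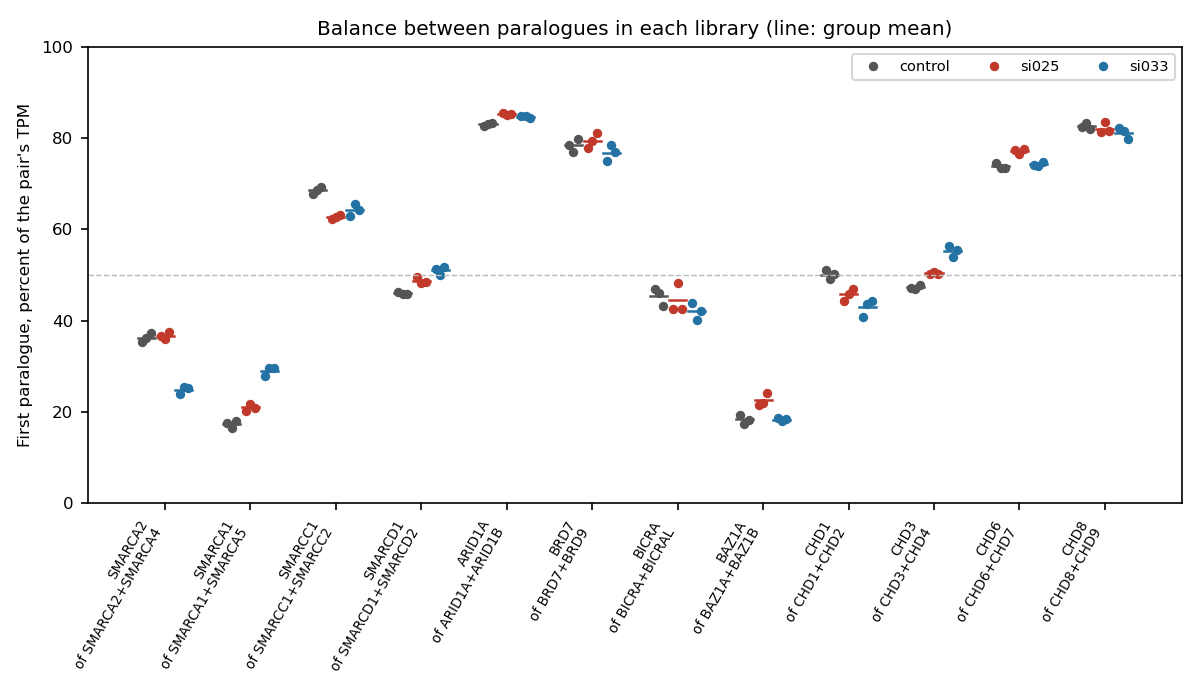
Share of the first paralogue in the TPM of each of 12 pairs (y axis, percent), with 1 point per library and a line at each group mean; the dashed line marks equal levels. *SMARCA2* drops to 24.9% of its pair with si033 only, whereas *SMARCA1* climbs from 17.4% through 21% to 28.9%.

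Partner subunits outside the 43 genes were counted from 5 lists of 61 genes. Over all tested genes, 28.8% were lower and 32.9% higher with si025, and 27.8% were lower and 26.9% higher with si033. Of 6 SWI/SNF partners, 3 were lower (50%) and 1 higher (16.7%) with si025, and 1 was lower (16.7%) and 3 higher (50%) with si033. *BCL7A* stood at 37.6 ± 0.506 CPM in control (SD, n = 3), 18.4 ± 0.916 with si025 and 46.8 ± 1.45 with si033. This small BAF subunit fell with si025 (log2 change -1.02 with SE 0.062, adjusted p = 2.06e-12), rose with si033 (log2 change 0.31 with SE 0.056, adjusted p = 4.91e-05) and differed between the siRNAs by -1.34 ± 0.061 (SE). *ACTB*, the actin that sits beside ACTL6A and has many processed copies in the genome that could share its reads, fell with both (-0.48 and -0.19, adjusted p = 8.49e-10 and 0.000472). The nerve counterpart of *ACTL6A*, *ACTL6B*, was 0.12 with si025 (adjusted p = 0.181) and rose with si033 (0.44, adjusted p = 3.42e-05). Of 8 ISWI partners, 5 were lower (62.5%) and 1 higher (12.5%) with si025, and 3 were lower (37.5%) and 0 higher with si033. *POLE3*, a histone-fold subunit of CHRAC, fell with both siRNAs (-0.52 and -0.43, adjusted p = 6.24e-10 and 2.41e-08).

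Of 10 NuRD partners, 4 were lower (40%) and 4 higher (40%) with si025, and 4 were lower (40%) and 3 higher (30%) with si033, beside 61.7% and 54.8% of all genes called in either direction. *RBBP4* and *RBBP7*, which NuRD also holds, were counted with the ISWI partners. Both fell with si025 (-0.28 and -0.27, adjusted p = 2.19e-06 and 7.16e-06). With si033 they stood at -0.14 (adjusted p = 0.00422) and 0.097 (adjusted p = 0.0581). *GATAD2A*, which links the histone deacetylase part of NuRD to CHD4, stood at 67.7 ± 2.12, 42.5 ± 0.962 and 73.6 ± 7.46 CPM in control, si025 and si033. It fell with si025 (log2 change -0.67 with SE 0.063, adjusted p = 3.16e-09) and was 0.12 with si033 (adjusted p = 0.108). The methyl-CpG reader *MBD2* rose with si033 (log2 change 0.64 with SE 0.052, adjusted p = 4.34e-10) and by less with si025 (log2 change 0.17 with SE 0.053, adjusted p = 0.00928). Of 26 partners of INO80, SRCAP and TIP60, 25 were tested, since *TFPT* had at most 1 count. Here 8 were lower (32%) and 2 higher (8%) with si025, and 9 were lower (36%) and 5 higher (20%) with si033. The paired AAA+ ATPases *RUVBL1* and *RUVBL2* fell with si025 (-0.46 and -0.59, adjusted p = 3.51e-08 and 3.12e-09) and with si033 (-0.60 and -0.38, adjusted p = 7.57e-10 and 4.07e-06).

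Other SNF2-type ATPases made up the last list, of 11 genes, of which 9 were lower (81.8%) and 0 higher with si025, and 6 were lower (54.5%) and 1 higher (9.09%) with si033, beside 28.8% and 27.8% of all genes called lower. *TTF2*, known for releasing RNA polymerase II from DNA, stood at 65.3 ± 5.03 CPM in control, 28.1 ± 2.92 with si025 and 43 ± 0.817 with si033. It fell with si025 (log2 change -1.24 with SE 0.069, adjusted p = 4.6e-13) and with si033 (log2 change -0.60 with SE 0.066, adjusted p = 5.55e-08). *HELLS*, which supports DNA methylation after replication, fell with both (-1.04 and -0.31, adjusted p = 2.03e-13 and 2.9e-05). *RAD54L*, a motor of homologous recombination, did so too (-0.97 and -0.33, adjusted p = 1.8e-11 and 0.000111). *ATRX* passed in neither comparison (0.024 and -0.022). The lists' median log2 fold changes with si025 were -0.11 for SWI/SNF partners, -0.18 for ISWI partners, -0.084 for NuRD partners, -0.026 for the INO80, SRCAP and TIP60 partners and -0.22 for the other SNF2 ATPases, beside 0.017 over all genes. With si033 they were, in the same order, 0.17, 0.0069, 0.031, -0.049 and -0.19, beside 0.0033 over all genes.

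Promoters from RefSeq (GRCh38.p14; 250 bases before to 50 after the start) were found for 34 of the 43 members. The E-box CACGTG, a palindrome that reads the same on both strands and the only motif searched, lay in 2 of them (5.88%), *PBRM1* and *CHD9*. Over all 35116 promoters of the table it lay in 7.26%, and in 9.98% of those of tested genes. The promoter of *PBRM1*, which rose with both siRNAs, and that of *SMARCD3*, which rose most, are printed 5′ to 3′ in the direction of each gene (minus strand) with the motif in capitals, at chr3:52685864-52686163 and chr7:151277100-151277399.
PBRM1: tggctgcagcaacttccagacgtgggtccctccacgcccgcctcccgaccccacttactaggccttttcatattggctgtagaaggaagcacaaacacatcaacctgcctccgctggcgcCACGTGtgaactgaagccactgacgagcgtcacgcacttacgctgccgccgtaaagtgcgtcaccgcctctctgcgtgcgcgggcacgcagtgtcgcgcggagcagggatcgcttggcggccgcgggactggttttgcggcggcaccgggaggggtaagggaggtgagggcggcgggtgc
SMARCD3: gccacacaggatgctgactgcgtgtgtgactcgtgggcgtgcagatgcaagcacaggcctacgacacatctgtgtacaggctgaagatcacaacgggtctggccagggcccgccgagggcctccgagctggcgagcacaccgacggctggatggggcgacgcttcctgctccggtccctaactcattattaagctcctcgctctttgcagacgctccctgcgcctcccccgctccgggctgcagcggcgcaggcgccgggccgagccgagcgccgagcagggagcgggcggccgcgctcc
In *PBRM1* the motif began at position -130 from the start, and in *CHD9* at -114. *SMARCD3* had no match in this window.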

How the data were processed

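RNA was sequenced from 9 libraries of VCaP cells as strand-specific read pairs. Per the file headers and processing notes, the authors aligned reads to hg38 with HISAT2 2.1.0 and counted them per gene over exons with featureCounts 1.5.2 on the reverse strand, and they deposited raw counts per gene with the exon length of each gene. The count files and the study's methods name different annotations, and the files' own symbols were used. Groups came from the labels. *BICRA* and *BICRAL* were found under older symbols through the RefSeq gene table, and all 43 members were matched.

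From the counts, edgeR 4.0.16 (R 4.3.3) was run with TMM scaling, filterByExpr and the quasi-likelihood test in 1 fit of 3 group means over 9 libraries, with Benjamini-Hochberg adjustment over 12810 genes and a threshold of 0.05. CPM used TMM scaling, TPM divided by the exon length without TMM scaling, and each SE was derived from the F statistic of its fold change. The code was tested on simulated data. Replicates differed beyond sampling noise (chi-square per degree of freedom 1.72 to 5.09), and the biological coefficient of variation was 4.13%. Precision follows depth, and floors of 3 counts cover counting error only. DESeq2 1.42.0 and the other alternatives are described in the closing section.

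Members, families, partner lists and pairs were chosen with earlier results of these data known. Values in every library are given for *SMARCA4* and *SMARCA1* and for the 6 members with the largest called change in each comparison, 13 genes in all, and the other members are given by family. Promoters and symbols came from RefSeq (GRCh38.p14), and siRNA strands from the study's oligo list were searched in hg38 for exact matches over 19 bases.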

Additional observations from a re-analysis of the deposited data

Results flagged for a closer look

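In 25 of the 41 tested members the effects of the 2 siRNAs against the same control differed, by edgeR's test of the difference itself (adjusted p under 0.05, beside 60.9% of all genes). Negative values are lower with si025. The 19 lower with si025 were, as log2 differences, *SMARCA4* -0.41, *ACTL6A* -0.67, *SMARCC1* -0.27, *SMARCC2* -0.17, *SMARCD1* -0.29, *SMARCD2* -0.16, *ARID1A* -0.16, *ARID1B* -0.23, *ARID2* -0.18, *PBRM1* -0.21, *PHF10* -0.29, *BRD9* -0.26, *SMARCA1* -0.65, *CHD2* -0.24, *CHD3* -0.37, *CHD7* -0.32, *CHD9* -0.19, *INO80* -0.16, *SMARCAL1* -0.52. The 6 higher with si025 were *SMARCA2* 0.40, *SS18* 0.22, *BICRA* 0.18, *BAZ1A* 0.51, *BAZ1B* 0.14, *BPTF* 0.27. SEs of these differences lay between 0.04 and 0.08. The calls of *BICRA*, *BRD9*, *BAZ1B* and *CHD9* were lost without 1 library, with the values given beside each gene above. *SMARCA4* and *BAZ1A* were called on opposite sides of control with the 2 siRNAs. The part of the siRNA sequence, of the depth of knockdown and of off-target pairing was not tested.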

How the results depend on the processing

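Of the called members, 21 of 26 with si025, 22 of 26 with si033 and 21 of 25 between the siRNAs stayed called under each of 16 alternatives, which were RLE or upper quartile scaling, DESeq2, no filter on low counts, fits of only the 2 groups compared, a replicate block, gene length offsets and leaving out each library. No called value changed sign. The counts called ranged from 22 to 31, 22 to 29 and 23 to 30, and those of at least 1.5-fold stayed at 2, 3 and 2. Same-numbered libraries did not clearly deviate together (correlations -0.021 to 0.073), though in each group replicate 1 had the lowest total count and replicate 3 the highest. A batch shared by number was not tested further, and the replicate block gave 28, 26 and 26 calls. Sign changes were seen only in values that were not called, and the cause was not tested. They were, with upper quartile normalization *ARID1A* 0.0073 (si025); with gene length offsets *SS18* -0.0073 (si025), *BAZ2A* -0.0012 (si025), *CHD6* -0.048 (si025), *CHD8* -0.050 (si025), *CHD9* -0.011 (si025), *PHF10* -0.0029 (si033), *BICRAL* -0.00050 (si025 against si033), *EP400* -0.00086 (si025 against si033), *SRCAP* -0.017 (si025 against si033); with RLE normalization *CHD6* -0.0018 (si025), *CHD8* -0.0088 (si025); with DESeq2 *CHD6* -0.00052 (si025), *CHD8* -0.0080 (si025); with only the 2 groups compared *CHD6* -0.0026 (si025), *CHD8* -0.0097 (si025). Leaving out 1 library gave these ranges: si025 against control, *ARID1A* -0.055 to 0.021, *DPF1* -0.069 to 0.30, *BICRAL* -0.092 to 0.047, *CHD6* -0.054 to 0.10, *CHD8* -0.066 to 0.063, *CHD9* -0.055 to 0.17; si033 against control, *ARID1B* -0.053 to 0.0058, *DPF1* -0.26 to 0.11, *ARID2* -0.015 to 0.054, *PHF10* -0.025 to 0.044, *INO80* -0.015 to 0.024, *SMARCAL1* -0.0093 to 0.077; si025 against si033, *SMARCE1* -0.012 to 0.037, *BICRAL* -0.0060 to 0.13, *SMARCA5* -0.047 to 0.018, *CHD6* -0.15 to 0.0020, *EP400* -0.024 to 0.092, *SRCAP* -0.045 to 0.084. For the paralogue pairs, the difference in mean log2 ratio between groups was recomputed in 288 alternatives. Leaving out 1 of 3 libraries cannot move such a difference by 1 SD, and a replicate block leaves it unchanged. A limit of 1 SD was therefore open only to the addition of 0.5 counts, under which no difference reached it. The difference took the other sign in 4 of the alternatives, all within overlapping libraries. For *SMARCA2* against *SMARCA4* with si025 it was -0.0015 without si025 replicate 3 and -0.0054 without control replicate 1 (0.023 over all libraries), and for *BAZ1A* against *BAZ1B* with si033 it was 0.014 without si033 replicate 2 and 0.044 without control replicate 1 (-0.0032 over all libraries). Between the siRNAs, *CHD4* was called with RLE scaling, upper quartile scaling, DESeq2 or gene length offsets (adjusted p 0.00121 to 0.0362, log2 fold change -0.13 to -0.098) and without si025 replicate 1 or any 1 control library, *CHD5* without si033 replicate 2 (-0.24, adjusted p = 0.0252), and *BAZ2A*, *CHD1* and *CHD5* with gene length offsets (-0.13, adjusted p = 0.00996; -0.13, adjusted p = 0.00689; -0.21, adjusted p = 0.0383). Depth limits *DPF1* (SE 0.25) and *SMARCD3* (SE 0.13) most.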
